A study of Mus musculus with 9 samples.

Results

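The genes described here belong to the pathways that make and sense oxidised products of arachidonic acid: Alox15 and another lipoxygenase, a lipoxygenase partner protein, the cyclooxygenases with an antisense RNA, the prostaglandin E synthases and a prostaglandin E receptor. They are every gene whose symbol starts with Alox, Ptgs or Ptge in the authors' 3 tables of differential expression, 10 of 8742 genes, and 3 of these symbols start with Alox, 3 with Ptgs and 4 with Ptge. Since a gene enters those tables through an adjusted p below 0.05 in some pair of groups, the 10 genes were chosen by the same measurements that are given below. Their levels and fold changes are therefore a description, with no test.

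The study sequenced RNA from mouse esophageal organoids, small bodies that epithelial cells of the esophagus form in culture. Its 9 libraries make up 3 groups of 3. WT organoids have the wild type genotype, PN organoids are labelled Trp53;Notch1 KO and PCN organoids Trp53;Cdkn2a;Notch1 KO. All were untreated and were lysed on day 7 after seeding, and the labelled loss of Trp53 and Notch1 is common to both edited groups. The labels state neither how the genes were edited, nor whether a group is 1 clone, nor whether its libraries are separate cultures or animals, so every error below measures the spread between these libraries alone.

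Library totals recovered from the tables ran from 14695420 to 20198041 counts. WT replicate 3 stood apart from the other WT libraries, with a mean chi-square per gene of 30.3 and 20.9 against them, where the other pairs within a group lay between 3.56 and 10.6. Values without it are given beside those members whose fold change then moved by over 1.5 times, Alox5ap and Ptger3. Trp53 RNA averaged 120.1 CPM (the count divided by the library total and brought to a common scale) in WT against 2.61 in PN and 3.07 in PCN. Notch1 RNA averaged 244, 148 and 71.3 CPM, so RNA of this gene remained in both edited groups, and counting over a whole gene does not check an edit. Cdkn2a RNA averaged 9.0, 22.1 and 65.2 CPM, highest in the group labelled as its knockout, so this group is called the organoids labelled PCN and each direction drawn from it rests on that label. Of 13 squamous epithelium markers all are in the tables, and the esophageal keratins Krt13 (15876 ± 645 CPM, SD, n = 3) and Krt4 (11383 ± 410.3) were abundant in WT. No fibroblast marker of 8 had values. Only genes listed in some pair have values, so the level of these markers is not known.

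Arachidonic acid is cut from membrane phospholipids by phospholipases A2 and then follows one of several branches. Lipoxygenases add oxygen to it or to related fatty acids and yield hydroperoxides. Hydroxy acids and leukotrienes are made from these and, in skin, precursors of the water barrier. Cyclooxygenases convert it to prostaglandin H2, which prostaglandin E synthases turn into prostaglandin E2, a lipid that signals through a small family of receptors and is then inactivated by oxidation.

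Alox15 had the highest level per length of the 10 genes in wild type organoids and was low in both edited groups. Alox15 encodes a lipoxygenase that oxygenates arachidonic and linoleic acid, also inside membranes, and in human airway and esophageal epithelium it is known as a gene induced by interleukin 4 and interleukin 13. The gene (ENSMUSG00000018924, chromosome 11, 70344152 to 70352031, minus strand, GRCm38) had 13130, 13070 and 14041 counts in the 3 WT libraries, 64, 57 and 87 in PN and 198, 148 and 155 in the organoids labelled PCN. These are 899 ± 27.9, 3.92 ± 0.630 and 8.87 ± 0.809 CPM. Every WT library lay far above every edited library, and every PCN library lay above every PN library.

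The log2 fold change of Alox15 was -7.82 ± 0.11 (standard error of the fit) in PN against WT, a level 226 times lower. It was -6.65 ± 0.10 in PCN against WT, 101 times lower, and 1.17 ± 0.16 in PCN against PN, 2.26 times higher. The comparisons with WT share the WT libraries, so they are not separate evidence. On the FPKM scale, which divides counts by gene length as well as by library total, Alox15 had 366 ± 11.4 in WT, rank 134 of the 6644 genes with counts in all 9 libraries. In PN its FPKM of 1.60 ± 0.257 gave rank 5264, and in PCN 3.62 ± 0.330 gave rank 4514. RNA was measured in bulk, so fewer cells of a type and less RNA per cell cannot be told apart here.

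Alox12b, whose enzyme oxidises a skin ceramide in an early step of the epidermal water barrier, was scarce and also lower in both edited groups. It lies on the plus strand of chromosome 11 (ENSMUSG00000032807, 69156989 to 69169792). Its counts were 109, 119 and 118 in WT against 15, 16 and 19 in PN and 51, 51 and 62 in PCN, and no group overlapped another. The means were 7.73 ± 0.415, 0.946 ± 0.0575 and 2.93 ± 0.402 CPM. Its log2 fold change was -3.01 ± 0.23 in PN against WT, -1.40 ± 0.20 in PCN against WT and 1.62 ± 0.28 in PCN against PN. Per length, Alox15 RNA was 115 ± 5.70 times as abundant as Alox12b RNA in WT, 4.10 ± 0.516 times in PN and 3.07 ± 0.704 times in PCN.

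Lipoxygenase genes are related in sequence, which matters for counts this unequal, and these stretches of their coding sequences (GENCODE M21, coding strand, 5′ to 3′) hold the longest run of bases that both members share, 16 bases, in capitals. The Alox15 stretch covers bases 662 to 717 of a coding sequence of 1989 bases, and the Alox12b stretch bases 767 to 822 of 2103.
Alox15: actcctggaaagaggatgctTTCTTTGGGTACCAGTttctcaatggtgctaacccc
Alox12b: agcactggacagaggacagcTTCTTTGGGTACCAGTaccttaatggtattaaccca
Over the whole alignment 57.2% of the aligned bases were identical. The closest relative of Alox15 among the 6 other annotated lipoxygenase genes was Alox12e, with 68.3% identity. The longest run that Alox15 shares with any of them has 18 bases, with Alox12. No stretch of 50 bases of the main Alox15 or Alox12b transcript occurs in a transcript of another gene.

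Alox5ap was scarce in WT and higher in PN. It encodes not an enzyme but FLAP, the membrane protein that hands arachidonic acid to the leukotriene-forming lipoxygenase Alox5. The gene (ENSMUSG00000060063, chromosome 5, 149264767 to 149288153) had 3, 3 and 9 counts in WT against 37, 47 and 51 in PN and 13, 9 and 13 in PCN. The PN libraries stood above all others, while the WT and PCN libraries overlapped, at 0.334 ± 0.227 and 0.619 ± 0.0932 CPM. In PN the level was 2.55 ± 0.312 CPM, a log2 fold change of 2.91 ± 0.42 against WT, or 3.62 without WT replicate 3. PCN against PN gave -2.03 ± 0.31, and the authors did not list the gene in PCN against WT. Of its 1420 exon bases, 13.3% overlap the antisense gene Gm19719, and whether the counting used strand is not given, so part of these few counts could belong to that gene.

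**Figure D1:**
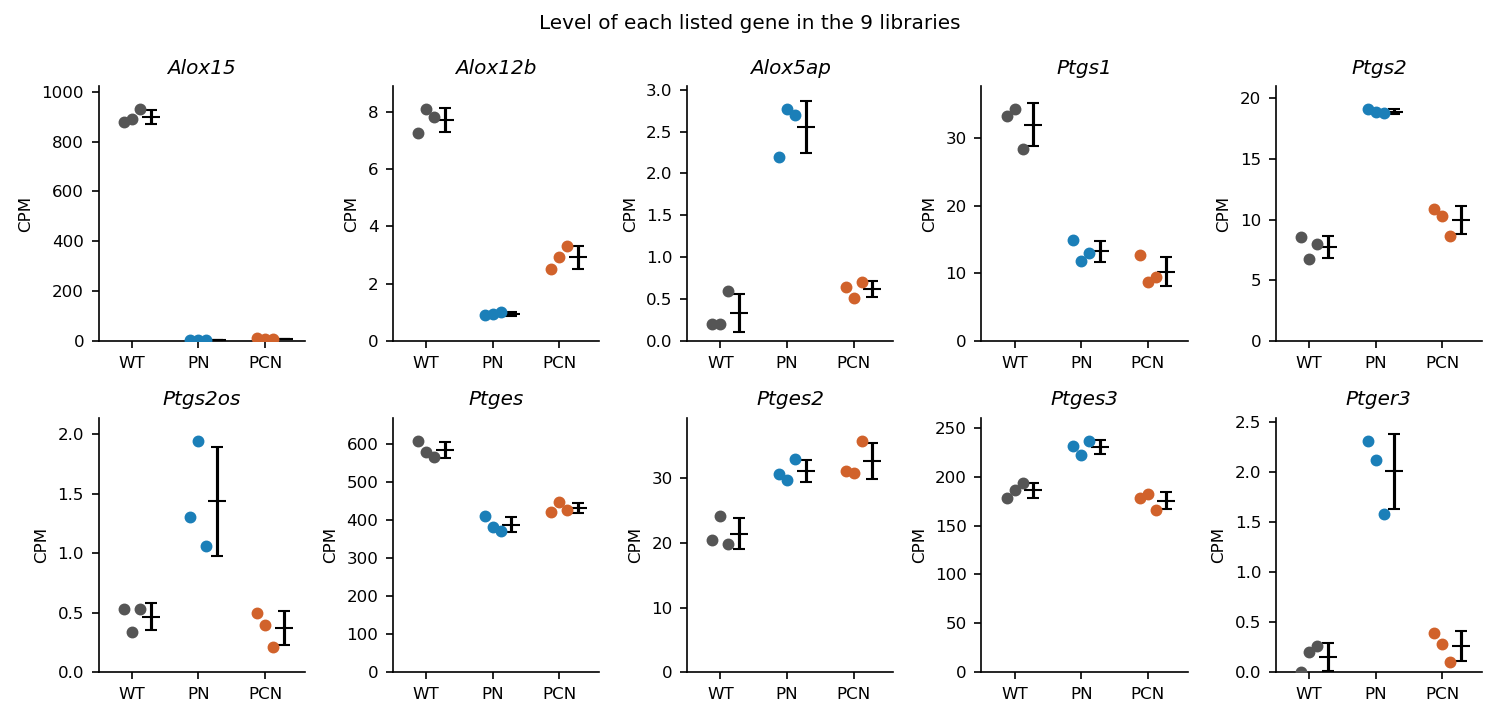
Level of each of the 10 genes in CPM (y axis, linear, separate scale per panel) in the 9 libraries; each dot is 1 library, and the black dash with its bar is the group mean ± SD (n = 3). Alox15, at 877 to 930.2 CPM in WT, lies near the baseline in both edited groups, while Alox5ap, Ptgs2os and Ptger3 stand out in PN.

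Between PN and WT the cyclooxygenase genes differed in opposite directions. Ptgs1 encodes cyclooxygenase 1, the form that most tissues make steadily. It lies on chromosome 2 (ENSMUSG00000047250, 36230426 to 36252272) and stood at 33.3, 34.3 and 28.4 CPM in WT against 14.9, 11.8 and 13.0 in PN and 12.7, 8.67 and 9.40 in PCN. All WT libraries lay above all edited ones, and the edited groups overlapped. The log2 fold change against WT was -1.26 ± 0.12 in PN and -1.63 ± 0.15 in PCN. In PCN against PN the authors did not list Ptgs1, and the difference was -0.37 ± 0.14, or -0.55 without PCN replicate 1. An antisense gene, Gm43621, overlaps 3.81% of the exon bases of Ptgs1.

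Ptgs2 encodes cyclooxygenase 2, the inducible form known from inflammation, wounds and tumours. It lies on chromosome 1 (ENSMUSG00000032487, 150100031 to 150108227, plus strand) and stood at 8.55, 6.74 and 7.95 CPM in WT against 19.1, 18.8 and 18.8 in PN and 10.9, 10.3 and 8.65 in PCN. PN libraries were the highest and differed little among themselves, with a mean of 18.9 ± 0.173 CPM. Fitted as a log2 fold change, the difference was 1.30 ± 0.13 in PN against WT and -0.92 ± 0.11 in PCN against PN. The PCN libraries all lay above the WT libraries, but the authors did not list the gene in that pair, where the difference was 0.37 ± 0.16.

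The make-up of cyclooxygenase RNA differed between the groups as well. Ptgs2 gave 17.1% ± 2.53 of the summed FPKM of Ptgs1 and Ptgs2 in WT, with single libraries at 14.3% to 19.2%. The share was 54.8% ± 2.73 in PN (52.0% to 57.4%) and 45.4% ± 4.29 in PCN (42.2% to 50.3%). No WT library came near the edited ones, and the PN and PCN libraries did not overlap. The sum itself was 9.93 ± 0.766 FPKM in WT against 7.54 ± 0.436 in PN and 4.81 ± 0.724 in PCN, so the PCN libraries combined a Ptgs2 share well above that of WT with the smallest total.

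Ptgs2os is a noncoding RNA read from the opposite strand next to Ptgs2 (ENSMUSG00000097028, chromosome 1, 150074873 to 150099963, minus strand). Its counts were 8, 5 and 8 in WT against 22, 33 and 20 in PN and 10, 7 and 4 in PCN. Only PN stood apart, and WT and PCN overlapped. Its log2 fold change was 1.60 ± 0.43 in PN against WT and -1.92 ± 0.42 in PCN against PN. Without PN replicate 2 the first was 1.33 and no longer passed the threshold.

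Ptgs2 and Ptgs2os point away from each other, and both were higher in PN than in either other group. The DNA around the start of Ptgs2, which reaches into Ptgs2os, is therefore shown. The window runs from 250 bases before the start of Ptgs2 to 30 after it (RefSeq, GRCm38.p6, plus strand, chr1:150099781-150100060, 5′ to 3′).
Ptgs2 promoter: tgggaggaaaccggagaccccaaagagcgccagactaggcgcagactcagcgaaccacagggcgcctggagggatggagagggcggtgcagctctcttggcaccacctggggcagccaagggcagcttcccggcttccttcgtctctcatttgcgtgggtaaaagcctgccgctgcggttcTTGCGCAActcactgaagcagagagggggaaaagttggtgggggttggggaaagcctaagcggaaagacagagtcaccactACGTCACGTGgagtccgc
The capitals mark a palindromic C/EBP motif (TTGCGCAA) that begins 69 bases before the Ptgs2 start, and a CRE half-site (ACGTCA) that overlaps an E-box (CACGTG), beginning at bases 13 and 17 after it. The RefSeq starts of the 2 genes are 157 bases apart, and 256 of 300 bases of their RefSeq promoter windows are the same DNA. Searched on both strands, TTGCGCAA was in 0.183% of 32851 promoter windows of 300 bases, ACGTCA in 7.51% and CACGTG in 7.15%.

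RefSeq windows were matched by symbol for 8 of the 10 genes. Alox15 and Alox5ap had no window, so their promoters were not searched. Beyond the pair just shown, Ptges2 held an E-box. Ptges and Ptges2 held the RBPJ core TGGGAA, which is in 25.6% of all windows, and Ptges held the STAT6 motif, TTC and GAA with 4 bases between them, which is in 6.95%. None of the 8 windows held the AP-1 motif TGANTCA (7.81% of all windows), the TATA box TATAAA (13.6%) or a p53 half-site (8.36%). A match is a run of letters and not a measured binding site.

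Ptges encodes the microsomal prostaglandin E synthase that works with cyclooxygenase 2, and it was the most abundant synthase gene in WT and PCN. It lies on chromosome 2 (ENSMUSG00000050737, 30889471 to 30929863, minus strand) and stood at 609.6, 580.4 and 567 CPM in WT against 410.5, 382 and 372 in PN and 421, 448 and 428 in PCN. The groups did not overlap. On the log2 scale the fold change was -0.58 ± 0.07 in PN against WT and -0.43 ± 0.07 in PCN against WT. In PCN against PN it was 0.16 ± 0.05, and this call was lost without PN replicate 2, PN replicate 3 or PCN replicate 2, at 0.15, 0.12 and 0.13.

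Ptges2, a further membrane-bound synthase, went the other way at a low level. It lies on chromosome 2 (ENSMUSG00000026820, 32395896 to 32405772) and stood at 20.4, 24.1 and 19.7 CPM in WT against 30.7, 29.7 and 32.9 in PN and 31.1, 30.8 and 35.8 in PCN. All edited libraries lay above WT, with log2 fold changes of 0.55 ± 0.11 in PN and 0.61 ± 0.11 in PCN, and PN and PCN overlapped (0.07 ± 0.08, not listed).

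Ptges3 encodes the cytosolic synthase that is also p23, a co-chaperone of Hsp90. It lies on chromosome 10 (ENSMUSG00000071072, 128058954 to 128077272) and stood at 178, 186 and 193 CPM in WT against 231, 222 and 237 in PN and 178, 182 and 166 in PCN. PN was above the others, and WT and PCN overlapped. Fitted as a log2 fold change, the difference was 0.32 ± 0.07 in PN against WT, -0.39 ± 0.05 in PCN against PN and -0.08 ± 0.07 in PCN against WT, where it was not listed. Of its stretches of 50 bases, 22.3% also occur in other genes, nearly all in the pseudogene Ptges3-ps, so its level is uncertain.

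Per length, Ptges made up 62.8% ± 1.75 of the summed FPKM of the 3 synthase genes in WT against 47.3% ± 1.60 in PN and 56.3% ± 0.858 in PCN. Ptges3 made up 35.4% ± 1.74, 49.7% ± 1.44 and 40.4% ± 1.13, and Ptges2 the small remainder. Ptges and Ptges3 were thus level in PN, where their FPKM values of 98.7 ± 5.10 and 104 ± 3.36 overlapped between libraries, and Ptges led in the other groups. The sum of the 3 genes was 237 ± 2.13 FPKM in WT against 209 ± 5.92 in PN and 196 ± 6.01 in PCN.

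**Figure D2:**
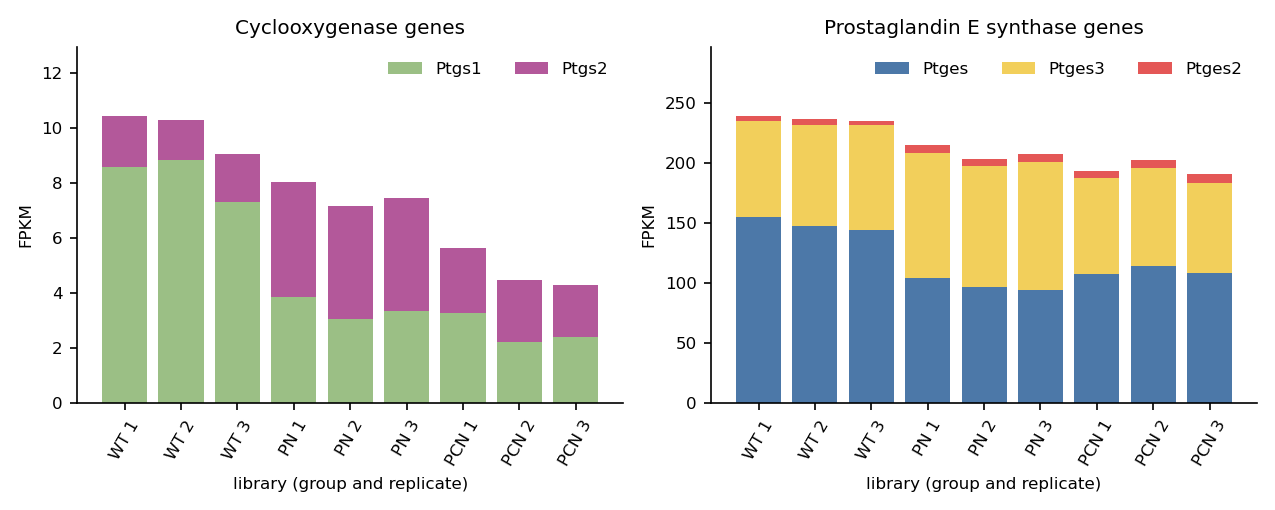
Stacked FPKM (y axis, from 0) of the cyclooxygenase genes (left) and the prostaglandin E synthase genes (right) in each of the 9 libraries; each bar is 1 library and each colour 1 gene. The Ptgs2 part is 14.3% to 19.2% of the bar in WT and 42.2% to 57.4% in the edited groups.

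Ptger3 encodes EP3, a receptor for prostaglandin E2 that acts through inhibitory G proteins. It lies on chromosome 3 (ENSMUSG00000040016, 157566892 to 157645888) and had 0, 3 and 4 counts in WT against 39, 36 and 30 in PN and 8, 5 and 2 in PCN. As with Alox5ap and Ptgs2os, the PN libraries alone stood apart. Its log2 fold change was 3.62 ± 0.56 in PN against WT and -2.87 ± 0.41 in PCN against PN. Only 7 counts in all stand behind the WT level. Without WT replicate 3 the comparison is 105 counts against 3, a ratio of 19.8 with an exact 95% interval from 6.60 to 97.6 that covers counting error only.

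In order of FPKM in WT, Alox15 was followed by Ptges (149 ± 5.50), Ptges3 (83.9 ± 3.41), Ptgs1 (8.24 ± 0.811), Ptges2 (4.24 ± 0.462), Alox12b (3.18 ± 0.171) and Ptgs2 (1.69 ± 0.202). Alox5ap (0.235 ± 0.160), Ptgs2os (0.108 ± 0.0256) and Ptger3 (0.0275 ± 0.0244) came last, and the libraries of no neighbours in this order overlapped. In PN the synthases Ptges3 and Ptges led, and Alox15 (1.60 ± 0.257 FPKM) stood below Ptgs2 (4.13 ± 0.0378) and Ptgs1 (3.42 ± 0.405) and overlapped Alox5ap (1.80 ± 0.220). In PCN Alox15 ranked behind Ptges, Ptges3 and Ptges2 and ahead of Ptgs1 and Ptgs2, which overlapped each other at 2.64 ± 0.550 and 2.17 ± 0.255 FPKM.

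Counted by pair, the authors listed all 10 genes in PN against WT, 6 higher and 4 lower, where 38.1% of all genes tested were listed, 18.2% as higher and 19.9% as lower. In PCN against WT they listed 5, 1 higher and 4 lower, where 38.6% of all were listed, 18.4% as higher and 20.2% as lower. In PCN against PN they listed 8, 3 higher and 5 lower, where 24.5% of all were listed, 12.6% as higher and 11.8% as lower. The members were drawn from the 8742 genes listed in some pair. Of those, 6544 (74.9%) were listed in PN against WT, 6678 (76.4%) in PCN against WT and 3609 in PCN against PN. Being listed somewhere is what chose these genes, so nothing is read from these shares. In the authors' deposited table of each pair, the median log2 fold change of the listed members was 0.43, -1.40 and -0.66, and that of all listed genes -0.27, -0.28 and 0.16. Alox15, Alox12b and Ptges were listed in all 3 pairs. Side by side, Alox5ap, Ptgs2, Ptgs2os, Ptges3 and Ptger3 were listed as higher in PN than in WT and as lower in PCN than in PN, and these pairs share the PN libraries. The symbols of 21 annotated genes start this way, and Alox5, Alox8, Alox12, Alox12e, Aloxe3, Ptger1, Ptger2, Ptger4, Ptges3l, Ptges3-ps and Ptgs2os2 are not analysed here.

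**Figure D3:**
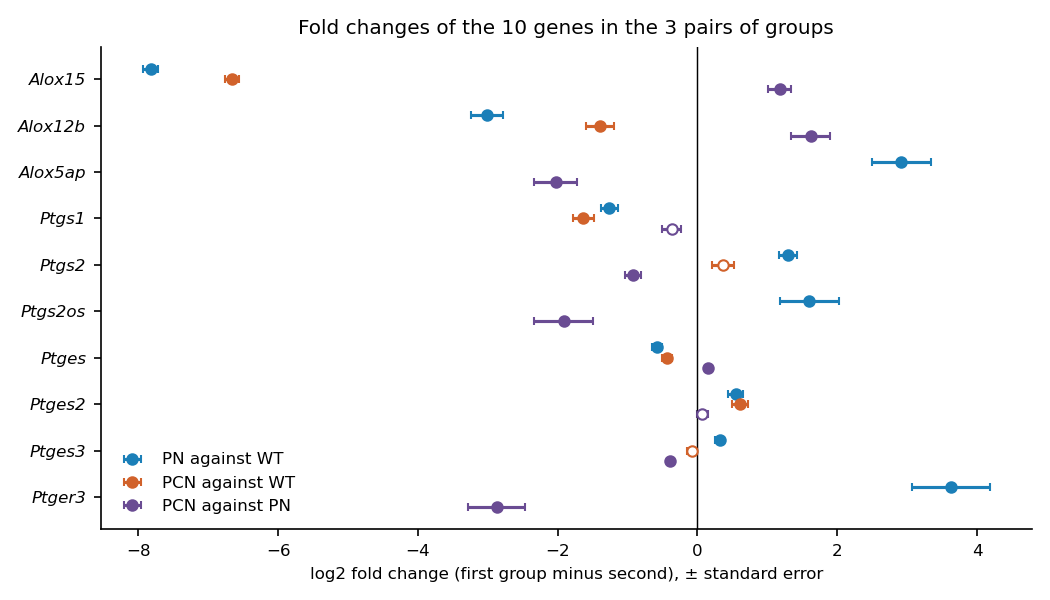
Log2 fold change ± standard error (x axis) of each gene (y axis) in the 3 pairs of groups; filled points are genes the authors listed in that pair, open points genes they did not, and genes too low to fit in a pair have no point. Alox15 lies at -7.82 and -6.65 against WT, and Ptger3, Alox5ap, Ptgs2os and Ptgs2 lie right of 0 in PN against WT and left of it in PCN against PN.

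The rest of the pathway was followed through 7 lists of 66 genes, of which 36 are in a table. Against WT, 5 rose and 24 fell in PN, of 29 listed, with a median log2 fold change of -0.74 where all fitted listed genes had -0.26. In PCN 3 rose and 25 fell, of 28, with a median of -0.83 against -0.28. In PCN against PN 10 rose and 17 fell, with a median of -0.31 against 0.16. Every one of these calls is that of edgeR's quasi-likelihood test at an adjusted p under 0.05. By the same test, 3022 of all 6295 fitted listed genes were higher and 3226 lower in PN against WT. In PCN against WT 3028 were higher and 3288 lower, of 6404, and in PCN against PN 1809 and 1698, of 3546. The lists were chosen with earlier results of these data known, so these counts are a description.

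At the entry to the pathway, 4 phospholipase A2 genes were listed in PN and 6 in PCN, and all fell. Pla2g4f, a cytosolic phospholipase A2, fell from 14.97 ± 0.679 CPM in WT to 1.72 ± 0.349 (PN) and 3.00 ± 1.21 (PCN), log2 fold changes of -3.10 ± 0.18 and -2.30 ± 0.23. Pla2g16, which trims phospholipids in fat cells, fell from 5.18 ± 1.41 CPM to 0.719 ± 0.353 in PN (-2.82 ± 0.36) and 0.153 ± 0.168 in PCN (-4.96 ± 0.48). Without PCN replicate 1 that last value was -6.35, from 2 counts in PCN, a ratio of 93.1 with an exact 95% interval from 25.5 to 773. Pla2g7, which breaks down platelet-activating factor, fell in PCN, with a log2 fold change of -1.88 ± 0.31, and differed from WT by -0.26 ± 0.23 in PN, where it was not listed.

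Of the other prostanoid synthase genes, 1 rose and 4 fell in PN, and 4 fell in PCN. Hpgds, the haematopoietic prostaglandin D synthase, fell from 3.62 ± 1.06 CPM to 0.364 ± 0.105 in PN and 0.554 ± 0.0698 in PCN. Cbr2, a carbonyl reductase, fell, with log2 fold changes of -1.33 ± 0.07 and -0.88 ± 0.08. Akr1b3, aldose reductase, which in mice also makes prostaglandin F2alpha, was the gene that rose in PN, from 104 ± 3.31 to 161 ± 3.65 CPM.

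Prostaglandin inactivation held the largest rise among the 7 lists. Hpgd, the dehydrogenase that oxidises prostaglandin E2 to an inactive form, rose from 7.02 ± 2.07 CPM in WT to 143 ± 18.3 (PN) and 39.3 ± 3.53 (PCN). Its log2 fold change was 4.36 ± 0.17 in PN against WT, 2.49 ± 0.17 in PCN against WT and -1.87 ± 0.09 in PCN against PN. Ptgr1 and Ptgr2, the reductases that act next on the oxidised product, fell. Ptgr1 averaged 1069.6 ± 60.1 CPM in WT against 563 ± 5.48 in PN and 322 ± 10.9 in PCN, and Ptgr2 averaged 31.1 ± 3.80, 20.95 ± 2.27 and 10.8 ± 0.576. Of the 5 genes listed on transport and inactivation in each comparison with WT, 1 rose and 4 fell in both.

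On the leukotriene side 1 gene rose and 3 fell in PN, and 3 fell in PCN. Mgst2, which can conjugate glutathione to leukotriene A4, changed by -0.82 ± 0.10 in PN and -0.63 ± 0.10 in PCN (log2). Lta4h, leukotriene A4 hydrolase, changed by -0.39 ± 0.08 and -0.65 ± 0.08, and Abcc1, a transporter that exports leukotriene C4, by -0.43 ± 0.06 and -0.74 ± 0.07. The neighbouring leukotriene B4 receptor genes Ltb4r1 and Ltb4r2 rose in PCN, by 0.41 ± 0.11 and 0.43 ± 0.10 against WT, and were not listed in PN against WT. Whether reads at these adjacent genes were divided correctly was not tested.

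The list of epoxygenases and epoxide hydrolases also holds a fatty acid hydroxylase gene, Cyp4f39. All 6 genes listed from it fell in PN and all 5 in PCN, the lowest medians of the 7 lists at -2.87 and -2.47. Cyp4f39, a mouse fatty acid hydroxylase, fell from 176 ± 15.9 CPM to 14.0 ± 1.88 and 20.8 ± 1.78. Cyp2s1, an epithelial cytochrome P450, fell from 37.5 ± 1.05 to 4.30 ± 0.844 and 6.76 ± 1.45. Ephx2, the soluble epoxide hydrolase, fell from 4.14 ± 1.12 to 0.171 ± 0.0594 and 0.125 ± 0.0323. In the supply of polyunsaturated fatty acids, 2 genes rose and 3 fell in PN and 3 fell in PCN, among them in PCN the desaturases Fads1 (-1.19 ± 0.07) and Fads2 (-1.08 ± 0.07), and the acyl-CoA synthetase Acsl1 (-0.59 ± 0.08 in PN and -0.61 ± 0.08 in PCN).

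**Figure D4:**
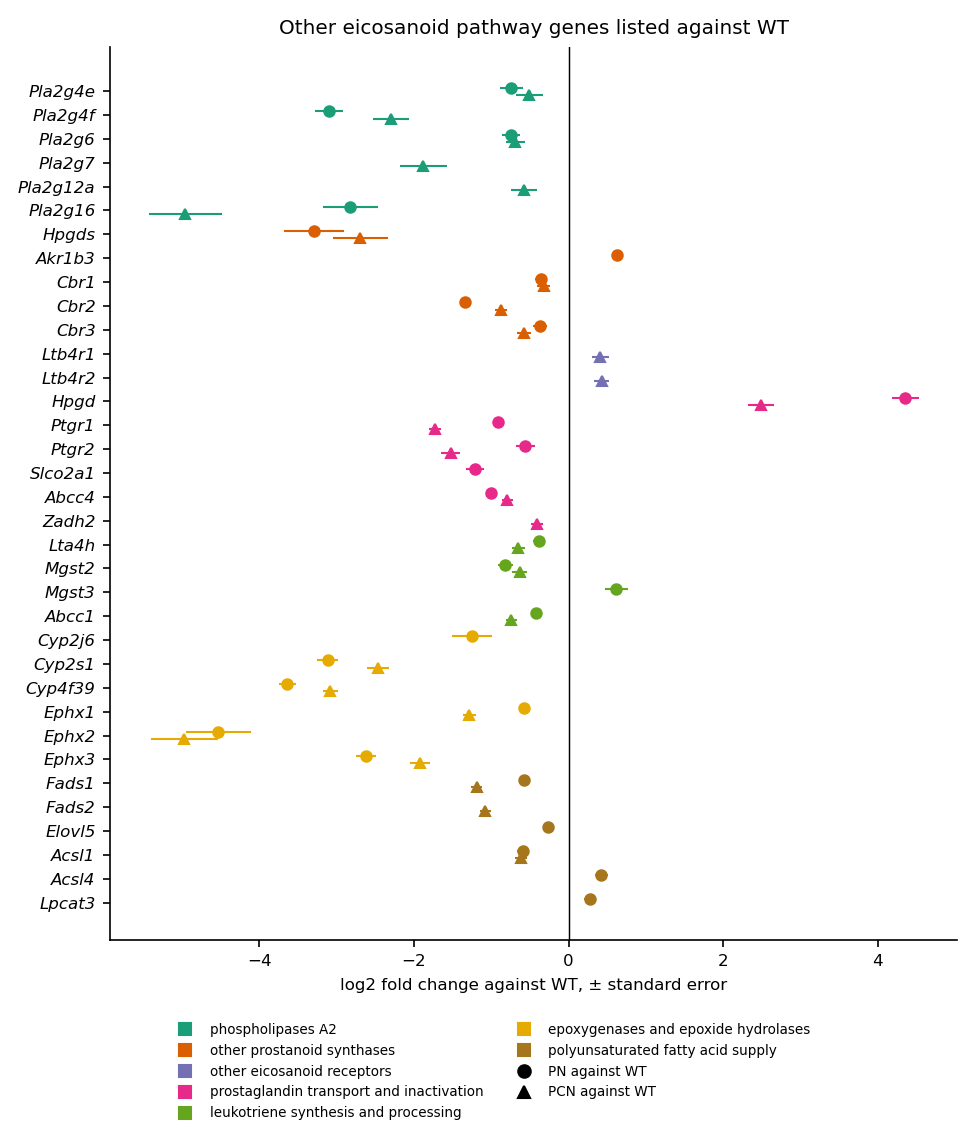
Log2 fold change against WT ± standard error (x axis) of the genes of the 7 pathway lists that were listed against WT (y axis, coloured by list), with circles for PN and triangles for PCN. Points lie mostly left of 0, and Hpgd stands far right, at 4.36 in PN and 2.49 in PCN.

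Genes tied to Alox15 by its known biology were followed through further lists. Of 19 genes of the interleukin 4 and interleukin 13 response, 8 are in a table. In PN 6 of 7 listed genes fell (median -1.44), and in PCN 4 fell and 1 rose (median -0.82). The other gene listed in PN, the chitinase-like Chil4, was at 0 counts in every WT library and at 0.454 ± 0.0337 CPM in PN, was too low to fit and is named here after its values were seen. The listed genes with the largest changes were Arg1, arginase 1, at 1609 ± 24.9 CPM in WT against 32.8 ± 5.07 in PN and 57.1 ± 3.05 in PCN, and Serpinb2, an inhibitor of plasminogen activators, at 29.6 ± 0.471, 5.74 ± 0.603 and 4.75 ± 0.587. Cish, a feedback inhibitor of cytokine signalling, changed by -1.73 ± 0.48 in PN, a call lost without WT replicate 2.

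Among genes that limit lipid peroxides or supply iron, 2 rose and 5 fell in PN and 5 fell in PCN. Sat1, which breaks down polyamines, changed by -0.98 ± 0.09 in PN and -0.97 ± 0.09 in PCN, and Hmox1, the haem-degrading enzyme, by -0.74 ± 0.10 and -1.17 ± 0.10. Fth1, the heavy chain of ferritin, changed by -0.77 ± 0.08 and -0.94 ± 0.09. Among epidermal lipid barrier genes, the pathway of Alox12b, 2 rose and 7 fell in PN and 1 rose and 8 fell in PCN. Tgm1, the transglutaminase that cross-links the cornified envelope, stood at 517 ± 20.99 CPM in WT against 62.5 ± 6.72 in PN and 68.7 ± 2.48 in PCN, and Spink5, a protease inhibitor of the outer layers, at 84.0 ± 10.2, 12.9 ± 1.15 and 10.8 ± 1.51.

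Pnpla1, an enzyme of skin ceramide synthesis, was the barrier gene that rose in both, from 0.134 ± 0.115 CPM to 1.11 ± 0.133 in PN and 1.31 ± 0.338 in PCN. Without WT replicate 1 its WT level rests on 2 counts, and the ratio was 16.5 in PN (exact 95% interval 4.37 to 139.6) and 19.4 in PCN (5.18 to 163). Among genes of the resolution of inflammation and lipid-binding receptors, 2 rose and 3 fell in PN, and 1 rose and 2 fell in PCN. Anxa1, annexin A1, stood at 2724 ± 199 CPM in WT against 342 ± 18.4 in PN and 453 ± 12.4 in PCN. Plin2, a lipid droplet coat protein, changed by -2.08 ± 0.15 and -1.30 ± 0.14. Pparg, a nuclear receptor activated by fatty acid derivatives, rose in PN, from 3.08 ± 0.0424 to 7.98 ± 1.21 CPM, and was not listed in PCN.

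Other measures also differed between WT and the edited groups, but not all followed Alox15 between PN and PCN. In PCN against PN, Krt13 was higher (log2 fold change 0.41 ± 0.04), as Alox15 was, while Krt4 was lower (-0.18 ± 0.04). The keratin changes that follow are against WT. The keratins of the differentiated esophageal layer fell, with log2 fold changes of -2.91 ± 0.06 in PN and -2.50 ± 0.06 in PCN for Krt13 and -2.18 ± 0.06 and -2.36 ± 0.06 for Krt4. The basal keratin Krt15 rose, with 1.29 ± 0.08 and 2.46 ± 0.09, but the other basal keratins did not follow it to this extent. Krt14 was at 0.01 ± 0.09 in PN, not listed, and 0.32 ± 0.09 in PCN. Krt5 was not listed against WT in either group. Of 13 squamous markers, 9 were listed in PN, where 2 rose and 7 fell, and 12 in PCN, where 3 rose and 8 fell. Of 20 leukocyte markers, which matter because white blood cells also make Alox15, Alox5ap, Ptgs2 and Hpgds, 4 have values. Summed over the 3 with values in all libraries (Cd68, Cd14 and S100a9), they came to 114 to 137 CPM (WT), 33.4 to 36.7 (PN) and 22.7 to 26.5 (PCN). Most of this sum was Cd68, a lysosomal protein gene, with means of 107, 25.2 and 16.1 CPM, and the others did not all follow it. Cd14 averaged 5.95, 1.24 and 2.27 CPM, higher in PCN than in PN but not listed in that pair, and S100a9 averaged 14.6, 8.52 and 6.41 CPM. S100a8 had values in the edited groups only and rose from 0.423 CPM in PN to 1.76 in PCN (log2 fold change 2.07 ± 0.38). The pan-leukocyte gene Ptprc and the other 15 are not analysed here. Of 6 endothelial markers only Esam had values, at 5.63 to 11.7 CPM (WT), 4.65 to 5.99 (PN) and 4.55 to 6.03 (PCN). The part of these cells or layers in the levels of the members was not tested.

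Alox15 and Trp53 share chromosome 11, with the lower coordinate of Trp53 at -763.8 kb from that of Alox15, so the genes between and around them were examined. Of the 44 other genes with values whose lower coordinate lies within 1 Mb, 35 were listed in PN against WT, and of the 33 fitted 11 were higher and 22 lower (median -0.50). That is 79.5% of these genes, where 74.9% of all 8742 were listed in this pair and the median of all fitted listed genes was -0.26. In PCN 36 were listed (81.8%, where 76.4% of all were), and of 35 fitted 14 were higher and 21 lower (median -0.52 against -0.28). The nearest listed neighbours on one side were Slc16a13 and Slc16a11, monocarboxylate transporter genes, with log2 fold changes in PN of -0.30 ± 0.08 and -1.42 ± 0.31, the second lost without WT replicate 1. Further out, Dvl2, a Wnt signal transducer, was listed in PCN against WT at 0.55 ± 0.11, and Dlg4, a synaptic scaffold gene, only in PCN against PN at 1.35.

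On the other side, Pelp1, a nuclear receptor co-regulator gene at 48.7 kb by the same measure, rose by 0.38 ± 0.10 in PN and 0.39 ± 0.10 in PCN. Arrb2, beta-arrestin 2, rose by 0.65 ± 0.16 and 0.63 ± 0.17. The chemokine gene Cxcl16 changed by -0.97 ± 0.21 in PN and was not listed in PCN. Psmb6, a proteasome subunit gene, was listed only in PCN against PN, at -0.16. None of these nearest neighbours on either side came near the fold change of Alox15. Further out, changes were larger. Over the fitted listed genes within 1 Mb, log2 fold changes ran from -5.5, that of Trp53, to 4.32 in PN. In PCN they ran from -5.27, again Trp53, to 8.45, a gene with no counts in WT.

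**Figure D5:**
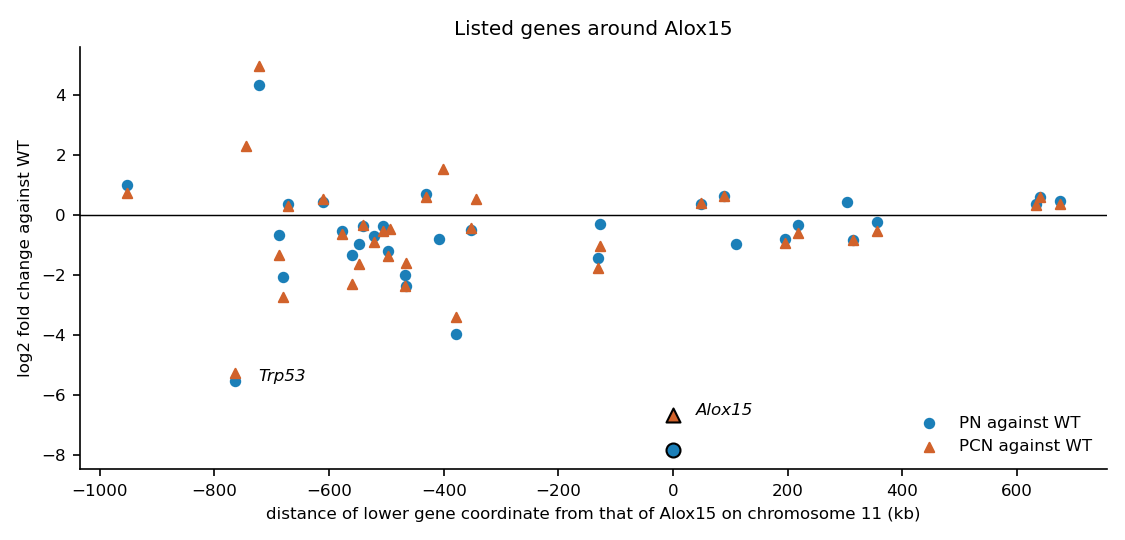
Log2 fold change against WT (y axis) of the genes listed within 1 Mb of Alox15, by the distance of their lower coordinate from that of Alox15 in kb (x axis), with circles for PN and triangles for PCN and Alox15 outlined in black. Alox15 lies lowest, at -7.82 and -6.65, the neighbours within 200 kb lie between -1.77 and 0.65, and 1 gene with no counts in WT is left out.

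Among 6198 protein-coding genes with counts in all 9 libraries, the 5 whose profile was most like that of Alox15 included Kbtbd11, Arg1, Psca and Trp53. Likeness was the root mean square difference between centred log2(CPM + 0.5) profiles, 0.913, 0.922, 0.949 and 1.01 in that order. Their log2 fold changes in PN against WT were -6.1, -5.6, -5.7 and -5.5, less than the -7.82 of Alox15. In PCN against PN, Arg1 (0.80) and Psca (0.82) were listed as higher, and Kbtbd11 and Trp53 were not listed. Trp53 is itself labelled as knocked out in both edited groups, and shared regulation was not tested. Psca, a surface antigen gene of stratified and glandular epithelia, stood at 1160.1 ± 329.7 CPM in WT against 22.4 ± 1.48 in PN and 39.7 ± 2.77 in PCN. With a pseudocount of 0.1 CPM, 2 of the 5 were still among the nearest 5.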

How the data were processed

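Total RNA of 9 organoid libraries was sequenced. CASAVA, DESeq and the build GRCm38 (mm10) stand in the submitters' processing notes without versions; which aligner, counter and annotation were used is not given in the sources used here. For each of the 3 pairs of groups the authors deposited a table limited to genes whose adjusted p was below 0.05. Raw counts per gene are the authors', per the file headers. In the deposited normalized signal, each count is divided by a size factor that belongs to 1 library in 1 pair. FPKM is the authors', per the file headers, from count, gene length and library total. Per the file headers the authors also give a log2 fold change, a p-value and an adjusted p-value, which the fits below replace here.

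Library totals, size factors and the number of genes adjusted over (17165, 17300 and 14758) were recovered from the deposited values. Totals ran from 14695420 to 15093994 (WT), 16857744 to 18912526 (PN) and 17422590 to 20198041 (PCN). Each pair was fitted on its whole table with edgeR 4.0.16 (quasi-likelihood, robust, filterByExpr, the authors' size factors), and p was adjusted by Benjamini-Hochberg over the recovered number. A gene outside a pair's table, with counts in the others, got values from an added fit and was never counted as called. On data simulated from the counts of each pair, 92% or more of genes changed by 1 on the log2 scale were called. The changed genes were not drawn from the scarcest, all genes had the same spread and no library stood apart. The rate therefore does not cover the scarcest genes or a library such as WT replicate 3. The biological coefficient of variation was 0.0870 between PN and WT, 0.0925 between PCN and WT and 0.0505 between PCN and PN. Intervals cover counting error only.

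Members and lists were chosen with earlier results of these data known. Named are all members, up to 3 listed genes per list with the largest change against WT, the 4 listed genes nearest Alox15 on each side, Trp53, the 5 genes most like Alox15 and the targeted genes. Of the 5 most like Alox15, 1 is not reported here. The titles number the replicates. In PN and WT, same-numbered libraries deviated together (correlations 0.249, 0.136 and 0.238), so the number was tried as a block in an alternative fit. That fit called 6277 genes in PN against WT, against 6248 in the main fit. The fold changes and errors given above come from the main fits, which use no pairing. Alternatives were TMM, library totals alone, DESeq2 1.42.0, no filter, the replicate block, no robust estimation and leaving out each library.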

Additional observations from a re-analysis of the deposited data

How the results depend on the processing

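The number of members called kept within 1.5 times of its value under all 12 alternatives per pair: 9 to 10 in PN against WT, 5 in PCN against WT and 7 to 8 in PCN against PN. Only genes the authors had called on these same counts could be called again, so this steadiness was largely fixed in advance. In PN against WT 6248 of all 6295 fitted listed genes passed. No direction of a listed change of a named gene turned; the unlisted difference of Ptges2 in PCN against PN went from 0.07 to -0.0069 without PCN replicate 3. With the replicate block the members called were 10, 5 and 8, and no member's call changed; of the other named genes only Psmb6 lost its call in PCN against PN (adjusted p = 0.060 with edgeR). In PCN against WT (correlations -0.192, -0.136 and -0.325) and PCN against PN (-0.105, -0.109 and -0.148) libraries share only a number, and the block gave 6075 and 3345 genes, against 6316 and 3507 without it. TMM on the listed genes gave 3047 higher and 2997 lower in PN against WT, against 3022 and 3226. Calls lost when 1 library was left out, beside those named with their genes, were Esam against WT in both groups, Cyp2s1, Slc16a11, Dlg4 and Psmb6 in PCN against PN. Counts under 10 per library limit Alox5ap in WT and in PCN replicate 2, Ptgs2os in WT and in 2 PCN libraries, and Ptger3 in WT and PCN.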
